A study of Homo sapiens with 2 samples.

Results

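The genes described here are 10 components of the transforming growth factor beta (TGF-beta) and bone morphogenetic protein (BMP) pathways: the ligands TGFB1, BMP2 and BMP4, the receptors TGFBR1, TGFBR2, TGFBR3 and BMPR2, the intracellular mediators SMAD3 and SMAD4, and the target gene ID1. They were chosen by symbol, with earlier results of these data known. The choice was among 18923 gene symbols that the array's annotation gives to at least 1 probeset with no second symbol. A probeset is a small group of probes placed in 1 stretch of a gene, usually an exon, and the 10 genes were read by 161 of them. The samples were 1 lysate of MKN45, a human gastric cancer cell line, and 1 lysate of MKN45P, its highly metastatic derivative. No treatment is named for either line. Both were grown in serum-containing medium, and total RNA was hybridised to 1 Affymetrix exon array per line. The question set by the design was how the metastatic line differs from its parent. Because each line has a single array, no replicate error exists and the lines cannot be tested against each other. Every difference is one between these 2 arrays, and the spread given is that among a gene's probesets.

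TGF-beta and BMP ligands are secreted dimers that bring together type I and type II serine/threonine kinase receptors. TGFBR2 binds TGF-beta and activates TGFBR1, which phosphorylates SMAD2 and SMAD3, whereas BMPR2 acts with the BMP type I receptors on SMAD1, SMAD5 and SMAD9. Both branches use SMAD4 as the shared partner that carries the complex to target genes. In gastric epithelium TGF-beta restrains growth, and loss of a receptor or of SMAD4 is known from gastric tumours.

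Values are log2 probeset values as deposited. The level of a probeset is the mean of the 2 arrays, and 2.77, the 75th percentile of level over all 877986 probesets, serves below as the mark above which a probeset is said to carry signal. The difference of a gene is taken as MKN45P minus MKN45 at each of its probesets, summarised by their median. Genes were called measured if they had 4 or more probesets and a median level no lower than 1.92, the median of all probesets. Of the 10 genes 9 were measured, and SMAD4 was not. Probes differ in how strongly they bind, so levels are compared between lines and not between genes.

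BMP4 and TGFBR2 were the members that were lower in MKN45P by 2-fold or more, and no member was 2-fold higher. Of all 13130 measured genes 1.2% were 2-fold lower or more, 4.58% that much higher and 5.78% past 2-fold in either direction, against 2 of the 9 members past it, both lower. Because the members were chosen with earlier results of these data known, this contrast is a description and no test. At 1.5-fold SMAD3 joined them on the higher side, so that 3 of 9 members passed 1.5-fold where 16.5% of all measured genes did (12.7% higher and 3.87% lower). Among the 8081 measured genes whose own level was at or above 2.77, the shares past 2-fold were 1.86% lower, 7.25% higher and 9.11% in either direction. The median difference of the 9 members was -0.07, beside 0.03 for all measured genes. Of the 9, 4 were higher and 5 lower in MKN45P. The sign of the members' median changed with the setting, from -0.15 with median levels to 0.25 with only probesets carrying signal.

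**Figure D1:**
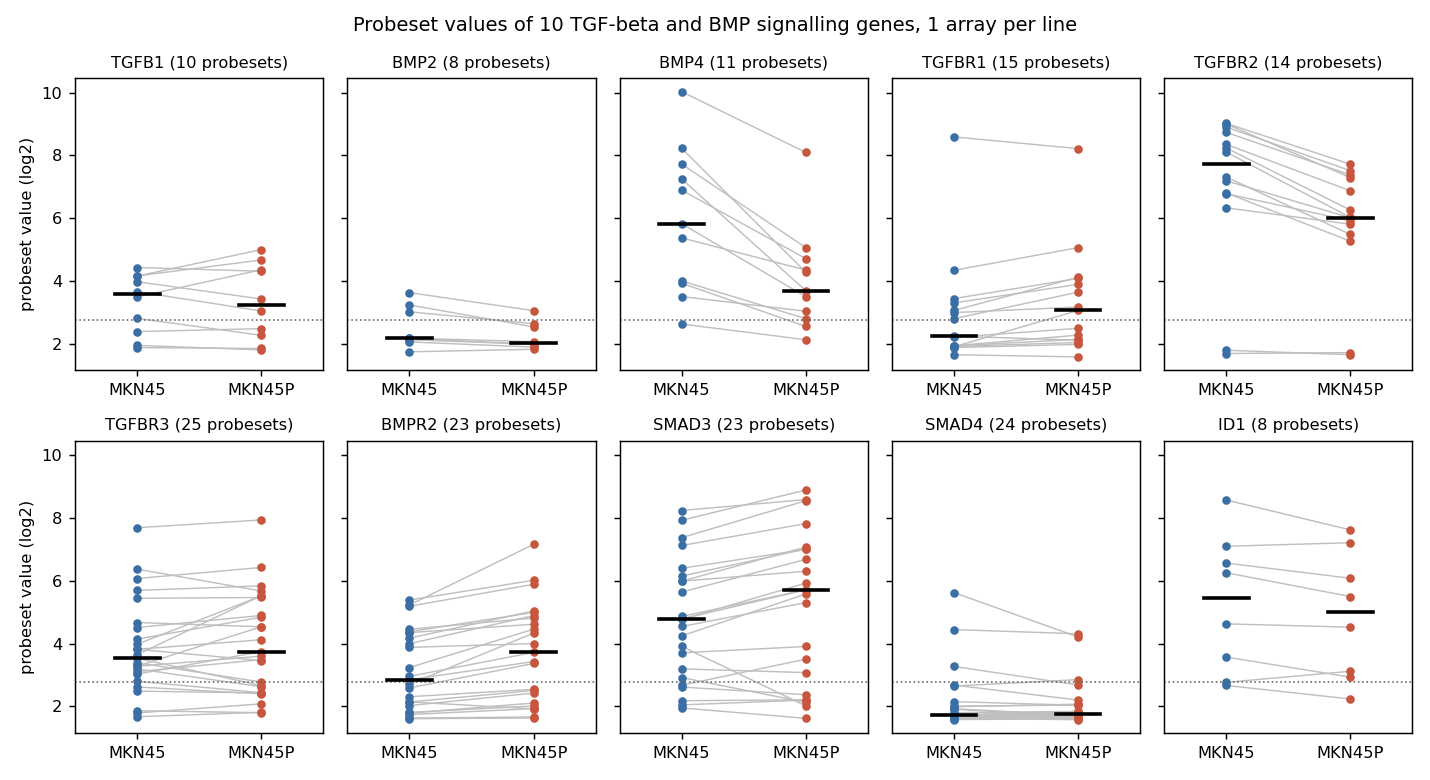
Log2 value of each probeset (points, joined across lines by grey lines) in MKN45 and MKN45P for the 10 genes, with the median of each line as a black bar and the 75th percentile of level as a dotted line. The points of BMP4 drop from a median of 5.83 to 3.69 and those of TGFBR2 from 7.71 to 6.02, while most points of SMAD4 lie at the bottom of the scale in both lines.

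BMP4, a secreted BMP ligand, had a median level of 5.83 in MKN45 and 3.69 in MKN45P. Its difference was -1.94, or 3.82-fold, with an interquartile range over 11 probesets of -2.50 to -1.11. All 11 probesets were lower in MKN45P, and 9 of them by 2-fold or more. In order of difference from the lowest, BMP4 was number 25 of the 13130 measured genes. The window around its first listed start is printed because BMP4 was the member with the largest difference. It spans 250 bases before to 50 after the start, on the minus strand at chr14:53955001-53955300 of GRCh38.p14 (sequence from RefSeq), and is 66.0% G or C. Capitals mark matches on either strand to CAGAC, the core bound by SMAD proteins, to GGCGCC, a GC-rich motif bound by SMADs of the BMP branch, and to CCAAT, the letters of the CCAAT box. Matches to the 3 motifs do not overlap one another in the windows shown.
BMP4: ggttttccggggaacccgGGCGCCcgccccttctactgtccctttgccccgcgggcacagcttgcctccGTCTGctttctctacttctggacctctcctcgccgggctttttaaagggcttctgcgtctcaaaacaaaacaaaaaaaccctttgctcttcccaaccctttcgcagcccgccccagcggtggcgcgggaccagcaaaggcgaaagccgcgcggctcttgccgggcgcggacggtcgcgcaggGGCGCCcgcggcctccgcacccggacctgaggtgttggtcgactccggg
It holds 1 match to CAGAC, on the opposite strand, and 2 to GGCGCC. Among all 35116 promoter windows of this length in the table, 45.3% hold CAGAC and 19.2% hold GGCGCC, so these matches describe the window and mark no proven site. The table lists 3 starts for BMP4, and the array values used here do not say which is in use.

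The 11 probesets of BMP4 were not lower by the same amount. Probeset 3565212 had 8.23 in MKN45 and 4.28 in MKN45P, the widest difference of the gene at -3.95. Probeset 3565209 followed with 7.25 and 3.69, a difference of -3.56. Probeset 3565208, the brightest of the gene, had 10.03 and 8.10 and differed by -1.94. The narrowest difference among probesets with signal, -0.47, was that of 3565220, with 3.50 and 3.03, where both lines were close to the low end of the scale. Numbers 1 to 6 in the order of probeset numbers all had values of at least 5.83 in MKN45, and numbers 7 to 11 had 5.37 or less there and smaller differences.

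TGFBR2, the type II receptor that binds TGF-beta, had a median level of 7.71 in MKN45 and 6.02 in MKN45P. The difference was -1.37, or 2.59-fold, with an interquartile range over 14 probesets of -1.67 to -0.94. Of the 14 probesets 13 were lower in MKN45P, and the other had a difference of 0.03 with no signal in either line. The 12 probesets with signal were all lower, from -2.08 to -0.52, and 10 of them by 2-fold or more. TGFBR2 was number 73 from the lowest difference among the 13130 measured genes. It was the only one of the 4 receptors past 1.5-fold at the median of all probesets.

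The probesets of TGFBR2 with signal were lower in MKN45P by differing amounts. Probeset 2615393 had 9.02 in MKN45 and 7.72 in MKN45P. Probeset 2615410 had the widest difference, -2.08, with 8.11 and 6.03. Probeset 2615379 had the narrowest with signal, -0.52, with 6.33 and 5.81. Among those with signal the largest departure from the gene's difference was 0.85 in log2 units. The window around its first listed start, shown because TGFBR2 was the receptor with the largest difference, lies on the plus strand at chr3:30606106-30606405 of GRCh38.p14 and is 42.3% G or C.
TGFBR2: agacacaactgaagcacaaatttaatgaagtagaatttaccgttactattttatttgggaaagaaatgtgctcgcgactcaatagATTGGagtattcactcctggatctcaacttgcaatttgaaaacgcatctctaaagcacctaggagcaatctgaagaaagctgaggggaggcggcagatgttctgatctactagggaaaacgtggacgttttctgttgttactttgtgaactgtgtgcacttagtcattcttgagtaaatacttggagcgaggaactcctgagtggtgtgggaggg
Capitals mark the same 3 motifs on either strand. The window holds 1 match to CCAAT, on the opposite strand, a motif found in 34.6% of all windows, and none to CAGAC or GGCGCC. The table lists 2 starts for the gene.

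**Figure D2:**
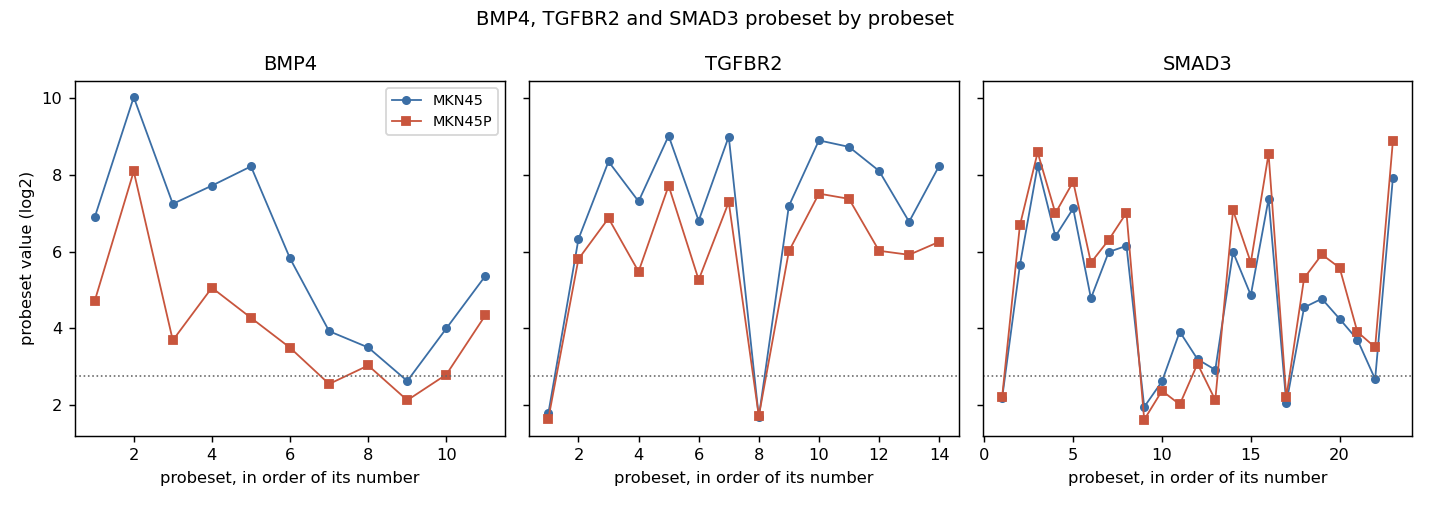
Log2 value in MKN45 (blue circles) and MKN45P (red squares) of each probeset of BMP4, TGFBR2 and SMAD3, in order of probeset number, with the 75th percentile of level as a dotted line. The MKN45P line runs below the MKN45 line along all 11 probesets of BMP4 and 13 of 14 of TGFBR2, and above it at 18 of the 23 probesets of SMAD3. The widest difference among the other 5 of SMAD3 is from 3.92 to 2.02.

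The other receptors were nearer to 0, and all 3 were on the higher side. BMPR2, the type II receptor for BMPs, had 2.85 in MKN45 and 3.72 in MKN45P, with a difference of 0.40 (interquartile range 0.22 to 0.77). Of its 23 probesets 22 were higher in MKN45P, and all 14 with signal were higher, by a median of 0.73. Its widest difference, 1.93, was that of probeset 2523251, with 5.24 and 7.17, and its narrowest with signal, 0.12, that of 2523241, where both lines were close to 4. BMPR2 was thus higher at almost every place measured, and 3 of its probesets were higher by 2-fold or more. The size depended on the probesets used, since the 9 with no signal lowered the median from 0.73 to 0.40.

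TGFBR1, the type I receptor that phosphorylates SMAD2 and SMAD3, had 2.24 in MKN45 and 3.06 in MKN45P. The difference was 0.29 (interquartile range 0.11 to 0.68), with 12 of 15 probesets higher. Only 7 of the 15 carried signal, and 6 of these were higher, by up to 1.06 at probeset 3181760 (3.06 and 4.12). The brightest probeset of the gene, 3181730, went the other way, with 8.59 in MKN45 and 8.22 in MKN45P. The next brightest, 3181747, had 4.34 and 5.06. The brightest probeset thus had the sign opposite to that of the gene's median.

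TGFBR3, the co-receptor betaglycan that presents TGF-beta to TGFBR2, had 3.54 in MKN45 and 3.75 in MKN45P. The difference was 0.14 (interquartile range -0.22 to 0.38), and 15 of 25 probesets were higher. Individual probesets of TGFBR3 spread widely in both directions. The highest difference, 1.89, was that of 2422725, with 3.65 and 5.53, and the lowest, -0.87, that of 2422749, with 3.54 and 2.66. The brightest probeset, 2422732, had 7.70 and 7.95.

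Of the other 2 ligands, neither passed 1.5-fold. TGFB1 had 3.58 in MKN45 and 3.23 in MKN45P, and its probesets were divided, with 4 higher and 6 lower. Its difference was -0.07 (interquartile range -0.44 to 0.41), with a span from -0.62 at probeset 3863039 (3.66 and 3.04) to 0.87 at 3863040 (3.49 and 4.36). No direction can be given for TGFB1: over the main and 8 other settings its difference ran from -0.34 to 0.19. BMP2 had 2.17 in MKN45 and 2.03 in MKN45P, close to the low end in both lines. Its difference was -0.18 (interquartile range -0.42 to -0.13), with 7 of 8 probesets lower. The 3 with signal were lower by 0.37 to 0.70, from 3.02 to 2.64 at 3875432 and from 3.24 to 2.54 at 3875431.

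SMAD3, the receptor-activated mediator of TGF-beta and activin signals, had 4.78 in MKN45 and 5.72 in MKN45P. The difference was 0.70, or 1.62-fold, with an interquartile range of 0.09 to 0.95. Of 23 probesets 18 were higher in MKN45P, and 16 of the 18 with signal were. The difference reached 1.33 at probeset 3599034 (4.25 and 5.58), and the brightest probeset, 3598992, had 8.25 and 8.59. Probeset 3599020 had 3.92 in MKN45 and 2.02 in MKN45P, a difference of -1.90 that departed from the gene by -2.59. It lies in a run of 5 consecutive probeset numbers, 9 to 13 of the 23, that had at most 3.92 in either line, and these 5 were the only probesets of the gene lower in MKN45P. The window around the first of 5 listed starts lies on the plus strand at chr15:67065352-67065651 of GRCh38.p14. It is shown beside those of BMP4 and TGFBR2 because SMAD3 was the member with the largest difference on the higher side, and it is 80.3% G or C.
SMAD3: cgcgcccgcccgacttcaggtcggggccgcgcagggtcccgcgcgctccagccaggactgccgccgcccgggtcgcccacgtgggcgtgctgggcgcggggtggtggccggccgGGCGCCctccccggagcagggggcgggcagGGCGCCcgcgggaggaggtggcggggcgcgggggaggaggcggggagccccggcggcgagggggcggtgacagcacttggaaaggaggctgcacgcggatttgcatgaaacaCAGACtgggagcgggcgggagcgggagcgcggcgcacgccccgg
With the same capitals, the window holds 1 match to CAGAC and 2 to GGCGCC, as many as that of BMP4. No link between such matches and the differences was tested. Across the 9 members with a window in the table, 4 held CAGAC, 4 held GGCGCC and 4 held CCAAT. Of all windows 45.3%, 19.2% and 34.6% did. The GC box, GGGCGG, was held by 7 of the 9 (45.0% of all windows). The E-box, CANNTG with N as any base, was held by 3 (68.7%). These counts were not tested.

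At the level of single exons, member probesets departed from their gene about as rarely as those of all measured genes. Of 96 probesets with signal in the 9 measured members, 2 departed by at least 2 in log2 units, the SMAD3 probeset 3599020 and, at -2.01, the BMP4 probeset 3565212. Of all 128280 such probesets of measured genes with at least 8 probesets 1.69% did. With quantile normalization or loess the SMAD3 probeset still departed by that much and the BMP4 probeset did not.

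**Figure D3:**
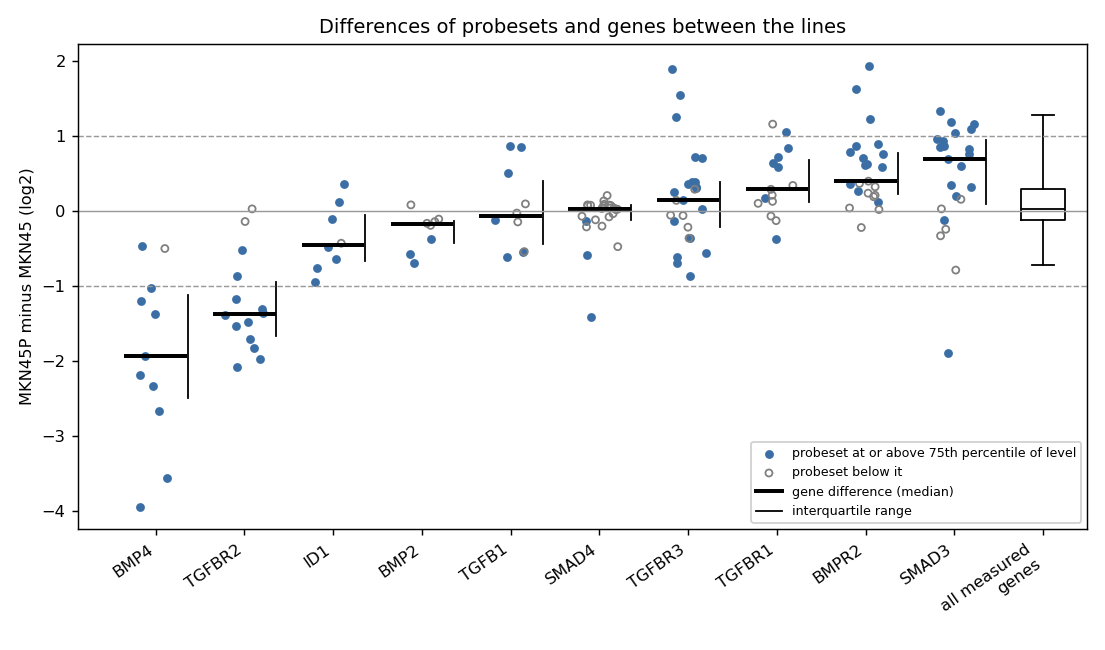
Difference between MKN45P and MKN45 in log2 units for each probeset of the 10 genes (filled, with signal; open, without), with the gene's median as a bar, its interquartile range as a thin line and a box for the 13130 measured genes (quartiles, whiskers over the central 95%). BMP4 (-1.94) and TGFBR2 (-1.37) lie below the dashed line at -1, and SMAD3 (0.70) is the highest member.

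SMAD4, the shared partner of both branches, had values close to the minimum along most of the gene in both lines. Its median was 1.74 in MKN45 and 1.75 in MKN45P, which put it below the level required of a measured gene, and its difference of 0.03 (interquartile range -0.12 to 0.07) says little about the RNA. Only 3 of its 24 probesets, 12.5%, carried signal. A share this low or lower was common on the array: 18.9% of all 13657 genes with at least 8 probesets had one.

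Of the 3 SMAD4 probesets with signal, 2 were among the first 3 in the probeset numbering. Probeset 3788304, the first, had 4.45 in MKN45 and 4.32 in MKN45P, the second, 3788305, had 2.65 and 2.86, and the third, 3788307, had 5.63 and 4.21. Over the other 21 probesets the median was 1.71 in MKN45 and 1.74 in MKN45P, and 16 of them were below 2 in both lines. The exceptions included 3788328, the third probeset with signal, with 3.28 and 2.69. The division after the first 3 was chosen after the values were seen, and the positions of the probesets in the gene were not used here. One further probeset that the annotation gives to SMAD4 and to a second gene was left out. Of the SMAD4 probesets with signal all 3 were lower in MKN45P, by 0.13, 1.42 and 0.59. This depends on the mark, since 3788305, with a level of 2.75 just under it, was higher in MKN45P by 0.20.

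**Figure D4:**
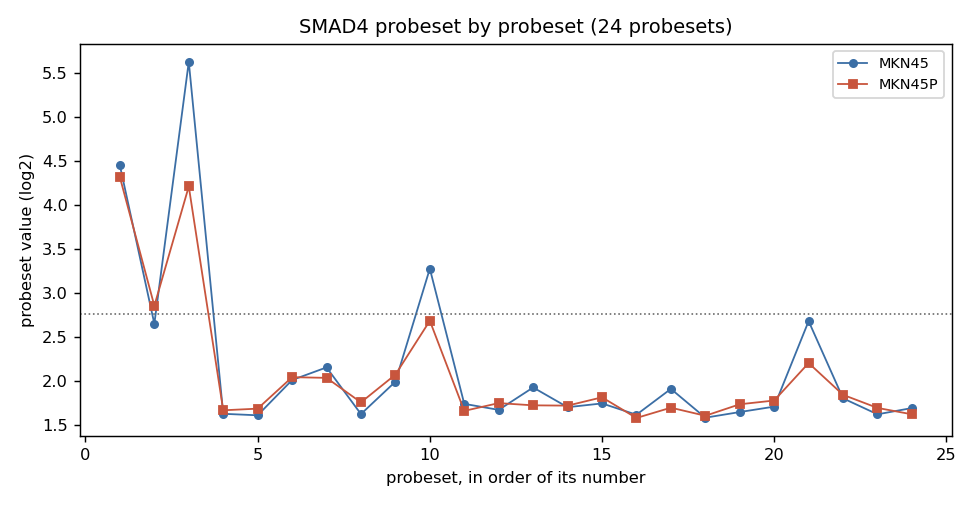
Log2 value in MKN45 (blue circles) and MKN45P (red squares) of the 24 probesets of SMAD4, in order of probeset number, with the 75th percentile of level as a dotted line. Over the first 3 probesets the values reach 5.63 in MKN45 and 4.32 in MKN45P, and over the other 21 the medians are 1.71 and 1.74.

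ID1, an inhibitor of helix-loop-helix transcription factors and a direct target of BMP signals, had 5.45 in MKN45 and 5.02 in MKN45P. The difference was -0.46 (interquartile range -0.67 to -0.05), under 1.5-fold, and 6 of 8 probesets were lower. The brightest, 3881395, had 8.58 in MKN45 and 7.63 in MKN45P, the widest difference of the gene at -0.95. The next brightest, 3881399, had 7.11 and 7.22, so that bright probesets of ID1 did not all point one way. The highest difference, 0.35, was that of 3881394, with 2.77 and 3.12. Its window, shown because ID1 is the target gene among the members, lies on the plus strand at chr20:31605039-31605338 of GRCh38.p14.
ID1: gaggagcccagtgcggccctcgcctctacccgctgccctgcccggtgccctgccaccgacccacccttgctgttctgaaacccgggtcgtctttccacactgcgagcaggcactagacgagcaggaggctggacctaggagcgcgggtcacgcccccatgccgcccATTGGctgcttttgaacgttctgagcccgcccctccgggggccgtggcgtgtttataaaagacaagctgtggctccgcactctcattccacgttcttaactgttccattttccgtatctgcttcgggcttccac
It holds 1 match to CCAAT, on the opposite strand, and none to CAGAC or GGCGCC. Regulatory sequence farther from the start is not in this window.

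Beyond the members, 8 lists of pathway genes were examined, with 141 genes in all, of which 111 were measured. Of these, 4 passed 2-fold upward in MKN45P and 2 downward, and the median difference was -0.03. Over all measured genes 4.58% were that much higher, 1.2% that much lower and 5.78% either, so 6 of 111 was near the background. Among 9 measured TGF-beta and activin ligands, INHBE, which encodes the activin beta E chain, was higher by 2.83 (2.54 in MKN45 and 5.46 in MKN45P, all 6 probesets higher). TGFB2 was at -0.84 with 16 of 17 probesets lower (3.22 in MKN45 and 2.34 in MKN45P), INHBB at -0.40 and AMH, the anti-Mullerian hormone, at -0.29, with a list median of -0.13. TGFB2 was past 2-fold with the mean of probesets and with only probesets carrying signal, reaching -1.56, and INHBB took the opposite sign when the lines' median levels were compared (0.48). Among 8 BMP and GDF ligands none passed 2-fold. BMP7 was at -0.78, with 5.84 in MKN45 and 5.27 in MKN45P and 12 of 13 probesets lower. BMP8B was at -0.58 (0.03 as a difference of median levels), GDF10 at -0.32 and GDF6 at -0.23, and the list median was -0.17.

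None of the 11 other receptors and co-receptors measured was past 2-fold at the median of probeset differences. RGMB, a BMP co-receptor of the repulsive guidance family, was at 0.70 with 13 of 14 probesets higher, but past 2-fold, at 1.51, as a difference of median levels (3.91 in MKN45 and 5.42 in MKN45P). BMPR1A, a type I receptor for BMPs, was at 0.39, RGMA at -0.30 and the co-receptor endoglin, ENG, at -0.30, with a list median of 0.04. The 25 SMADs and SMAD regulators all lay within 2-fold at the median of probeset differences, with a list median of 0.18. As differences of median levels HIPK2 (-1.10), ZFYVE9 (1.01) and SKIL (1.41), a SMAD corepressor, were past it. HIPK2, a nuclear kinase that acts with SMAD corepressors, was at -0.66, lower at 26 of 27 probesets. STRAP, a receptor-associated protein, was at 0.65, TOB1, an antiproliferative protein that binds SMADs, at -0.60, and ZFYVE9, the anchor SARA that brings SMAD2 and SMAD3 to the receptor, at 0.57.

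Among 12 genes of TGF-beta latency and activation, the integrin chain ITGB8, part of an integrin that frees TGF-beta from its latent complex, was lower by 2-fold or more (-1.36, 25 of 27 probesets lower). FURIN, the protease that cuts the TGF-beta precursor, was at -0.59 with 18 of 19 probesets lower, LRRC32, which holds latent TGF-beta at the cell surface, at -0.41, and THBS1 at -0.26. The list median was -0.15. None of 9 extracellular antagonists passed 2-fold at the median of probeset differences. The BMP antagonist noggin, NOG, was at 0.47, but at 1.41 as a difference of median levels (2.37 in MKN45 and 3.78 in MKN45P). The next in size were FSTL3 at -0.19, sclerostin, SOST, at -0.17 and chordin, CHRD, at -0.07, with a median of -0.03.

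Known TGF-beta target genes went both ways. Of 25 measured, KLF10 (1.95), KLF11 (1.73) and DAPK1 (1.01) were at least 2-fold higher and PMEPA1 (-1.07) at least 2-fold lower, and the list median was -0.02. The shares over all measured genes were 4.58% higher and 1.2% lower. As differences of median levels SKIL (1.41), also listed among the SMAD regulators, and BHLHE40 (-1.15) were past 2-fold as well. At the median of probeset differences they were at 0.31 and -0.45. KLF10, an early zinc finger target of TGF-beta, had 5.54 in MKN45 and 8.27 in MKN45P with 9 of 10 probesets higher. KLF11, its close relative, had 3.17 and 4.96, with a wide interquartile range of 0.06 to 2.84. PMEPA1, a membrane protein that dampens SMAD signalling, had 4.76 and 3.25, lower at 18 of 20 probesets. DAPK1, a death-associated kinase, was just past 2-fold and fell short of it with quantile normalization, loess or the mean of probesets, and PMEPA1 fell short with loess.

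No measured BMP target gene of 19 passed 2-fold, and 14 of them had negative differences, with a median of -0.13. Of all 13130 measured genes 45.1% had negative differences and 5.78% were past 2-fold. The share of negative differences varied with level: it was 37.2% among measured genes with a level at or above 2.77, and so higher among the rest. Only 8 of the 19 targets stayed measured on probesets with signal alone, so 45.1% is no close match for this list. The homeobox gene MSX2 was at -0.79, lower at all 5 probesets, with 6.33 in MKN45 and 6.19 in MKN45P as median levels. ID2, the relative of ID1, was at -0.44 (3.14 and 2.71), and the inhibitory SMAD6 at -0.40, lower at 17 of 19 probesets. BAMBI, a decoy receptor, was at 0.29 (0.92 as a difference of median levels). Including BAMBI, 5 of the 19 had positive differences. No set was tested, and neither was any link between these genes and BMP4.

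**Figure D5:**
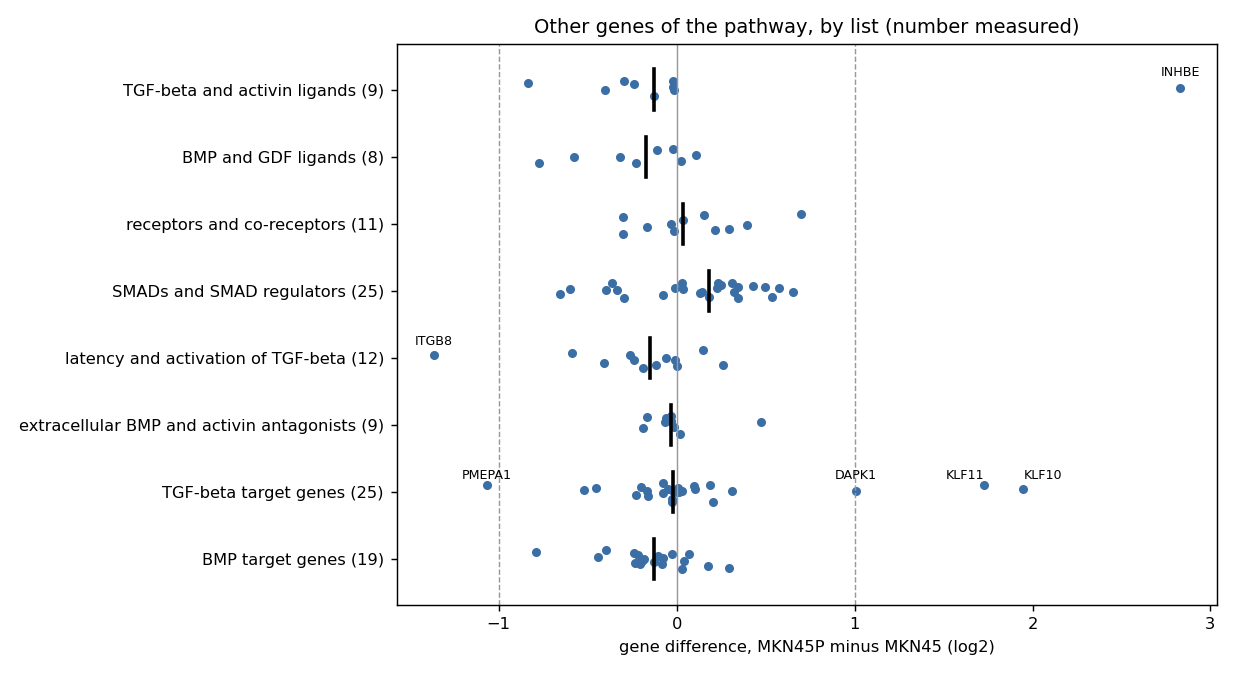
Gene differences between MKN45P and MKN45 in log2 units for the measured genes of 8 pathway lists (points; number measured in parentheses), with the list median as a bar and dashed lines at 2-fold. Genes past 2-fold are named: INHBE (2.83), KLF10 (1.95), KLF11 (1.73) and DAPK1 (1.01) to the right, ITGB8 (-1.36) and PMEPA1 (-1.07) to the left.

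Markers of the cell types a lysate could hold were read in both lines. Of 13 epithelial markers 9 had a median with signal in each line, among them CDH1, EPCAM and CLDN7. Of the gastric markers TFF1 had signal (4.92 in MKN45 and 3.71 in MKN45P), and CLDN18 and TFF2 did not. CLDN7, a tight junction protein, was higher in MKN45P by 1.14, at 9 of 9 probesets (8.83 and 9.93). The epithelial markers went both ways, with 5 of the 10 measured higher in MKN45P and 5 lower. Among the lower were REG4 at -0.60 (14 of 15 probesets lower) and TFF1 at -0.50 (4 of 4). Of 11 fibroblast markers, none had signal in MKN45 and 1, COL1A1, in MKN45P (2.62 and 2.86). Of 7 endothelial markers 1 had signal in each line, and of 8 immune markers on the array 1 in MKN45 and none in MKN45P. Of 6 mesothelial markers 4 had signal in each line, among them CALB2 (8.70 and 9.49). UPK3B was lower by 2-fold or more in MKN45P (-1.06, 7 of 7 probesets, 6.26 and 4.50), and WT1 was at -0.59 (5.32 and 4.18). The part of these marker differences in the results above was not tested. Fewer cells expressing a gene and less RNA per cell cannot be told apart in such bulk samples.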

How the data were processed

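Total RNA of 1 lysate each of MKN45 and MKN45P was measured on 1 exon array per line. Ribosomal RNA was depleted, and cDNA from a whole-transcript kit was fragmented and labelled with biotin, per the labels' protocols. The deposited values are log2 values for 877986 probesets; the base was read from their range, since the maximum of 13.48 would exceed a 16-bit scanner on a natural logarithm. Partek and the hg18 build are named, per the submitters' processing notes. How background, probe summary and scaling were handled is not given in the sources used. Values were used as deposited, with medians of 1.93 and 1.91. Symbols came from the platform annotation: 286871 probesets had 1 symbol, 3137 had several and 587978 were unnamed. All 10 members matched a current RefSeq symbol, and 9 had a promoter window. For lists, a gene absent under its current symbol was read under the older symbol written with the list, where there was one. Otherwise a RefSeq synonym was used only if that name belonged to no other gene.

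The gene summary, stated with the results, was tried on simulated data in which probeset departures were shuffled among probesets of like level. The filters were not tried in this way. No test between lines was possible. The members and lists were chosen with earlier results of these data known. Genes named were all members, and from each list every gene past 2-fold and up to 4 with the largest differences. Alternatives were 3 scalings, 2 other gene summaries, probesets with signal only, no gene filter and at least 10 probesets. Python 3.11.15, numpy 2.4.6, pandas 2.3.3, statsmodels 0.14.6 and matplotlib 3.10.9 were used.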

Additional observations from a re-analysis of the deposited data

How the results depend on the processing

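BMP4 and TGFBR2 were the only members past 2-fold under the main setting and each of the 8 alternatives, with differences from -2.14 to -1.92 for BMP4 and from -1.69 to -1.24 for TGFBR2. The sign of the other measured members held wherever they were measured, except for TGFB1. The members' median took either sign, at 0.03 with the mean of probesets, 0.25 with only probesets with signal and 0.14 with at least 10 probesets. SMAD3 ran from 0.43 to 0.94 and was under 1.5-fold with quantile normalization and with the mean of probesets. Members past 1.5-fold numbered 5 with the difference of median levels and 5 with only probesets carrying signal, TGFBR1 and BMPR2 being added; on median levels these were at 0.82 and 0.87. Departing member probesets numbered 1 with loess and 1 with quantile normalization. On median levels the genes past 2-fold numbered 3 among SMADs and SMAD regulators, 1 (RGMB) among receptors and co-receptors and 1 (NOG) among antagonists. Among TGF-beta and activin ligands they numbered 2 with the mean of probesets, 2 with only probesets with signal (TGFB2 being added in both) and 0 with at least 10 probesets, since INHBE has 6; among TGF-beta targets 2 with loess. Where no number of probesets or genes explains a shift by construction, the cause was not tested. The other 81 list or member results under an alternative stayed within 1.5 times the main count or within the spread. Signal near the low end limits SMAD4, BMP2 and TGFBR1. No paired analysis was possible because each line has 1 array, and no array could be left out.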

Other observations

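The protein-coding neighbours of 4 members were examined after their values had been seen, 4 on each side in the gene order of RefSeq (GRCh38.p14). SMAD4 lies on chromosome 18 between ELAC1 and MEX3C. ELAC1, a tRNA-processing enzyme next to SMAD4, had 2.85 in MKN45 and 2.78 in MKN45P over 8 probesets, and MEX3C, an RNA-binding ubiquitin ligase on the other side, had 4.64 and 4.95 over 10. ME2, the mitochondrial malic enzyme beyond ELAC1, had 5.44 in MKN45 and 6.57 in MKN45P, a difference of 1.34 (interquartile range 0.60 to 1.44 over 14 probesets), and was the only 1 of the 5 measured neighbours past 2-fold. ELAC1, ME2 and MEX3C each had medians above the 75th percentile of all probesets in both lines, ELAC1 only just. The neighbours MRO (1.78 in MKN45 and 1.77 in MKN45P) and DCC (1.81 and 1.79) were not measured. Levels are not compared between genes here, and the state of the locus was not tested.

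None of the measured neighbours of BMP4 (6), TGFBR2 (3) or SMAD3 (5) was past 2-fold. Near BMP4 on chromosome 14, DDHD1 was at 0.32 and CDKN3 at -0.09. CNIH1, at 0.76, had the largest difference of the 6. Near TGFBR2 on chromosome 3, STT3B was at -0.08 and OSBPL10 at -0.65. SMAD6, the inhibitory SMAD next to SMAD3 on chromosome 15, was at -0.40, whereas SMAD3 was at 0.70.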
